A study of Mus musculus with 17 samples.

Results

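The proton pump, hydrolases, membrane proteins and regulators of the lysosome were followed as a set of 42 genes, chosen by their symbols: 16 of the pump (6 V0 subunits, 8 V1 subunits and 2 accessory proteins), 7 lysosomal membrane proteins, 12 glycosidases and sulfatases, 4 genes of lipid and peptide breakdown and the 3 transcription factors. All 42 were found among the 22859 genes of the count table, and all 42 passed the filter on low counts that left 15272 genes for testing. Bulk RNA was sequenced from sorted macrophages of the synovium (the lining of the joint) of adult mice. All mice of every group, controls included, carried the label Fcgr2b-KO, the knockout of the inhibitory Fc receptor for immunoglobulin G, so there was no group with the receptor intact. Mice had received immune complexes (IC, antibody bound to antigen) into a vein and were killed 8 h later, or were controls, whose injection the labels do not describe. The label Lyve1 was read as LYVE1+CX3CR1+, IAIE as MHCII+CD11c− and CD11c as MHCII+CD11c+ macrophages. Each subset gave 3 control libraries (labelled Healthy) and 3 libraries after IC, except MHCII+CD11c+ macrophages after IC with 2, which makes 17 libraries in 6 groups. The labels do not say whether replicates came from separate mice or pools, so p-values measure only the spread between these libraries.

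The lysosome is the acidic compartment in which macrophages break down what they take up, including antibody-coated material. A proton pump, the vacuolar ATPase, acidifies it: a cytosolic V1 sector splits ATP and drives protons through a membrane-embedded V0 sector, and the acid activates soluble hydrolases that cut glycans, sulfated sugars, lipids and peptides. Many of these genes carry an E-box motif near their start that is bound by the related transcription factors TFEB, TFE3 and MITF.

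To show where the E-box lies, promoter windows from RefSeq (GRCm38.p6, 250 bases before to 50 after the annotated start) were searched on both strands for TCACGTG, the core of the site recognised by the TFEB family, and for TCATGTGA, the M-box of MITF. The tables held 43 windows for 35 of the 42 genes, and none for Atp6v1c1, Atp6v1h, Asah1, Atp6v1b2, Npc1, Atp6v0d2 and Atp6v1g1. TCACGTG was present in 12 of the 43 windows (27.9%) and in 3.77% of all 32851 windows, and TCATGTGA in 4 (9.3%) and 0.986%. A palindromic site counts on both strands as a pair of overlapping matches, and no TCACGTG match overlapped a TCATGTGA match in these windows. Stretches of 4 genes that later differ between subsets are printed 5′ to 3′, with the matches in capitals, and were picked after their values were seen. The first, chr8:13159081-13159160 on the plus strand, holds 4 matches in the 80 bases before the start of Lamp1. The others are chr8:3500399-3500456 (Mcoln1), chr11:119267803-119267862 (Gaa) and chr11:102430257-102430308 (Grn, with the M-box on the other strand), all plus strand.
Lamp1: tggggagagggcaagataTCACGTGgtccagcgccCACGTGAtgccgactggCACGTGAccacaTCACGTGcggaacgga
Mcoln1: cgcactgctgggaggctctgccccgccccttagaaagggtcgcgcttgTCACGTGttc
Gaa: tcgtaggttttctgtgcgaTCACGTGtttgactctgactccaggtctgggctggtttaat
Grn: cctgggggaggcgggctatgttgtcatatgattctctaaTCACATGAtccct

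The 4 matches of Lamp1 lay between 62 and 10 bases before the RefSeq start. The single match of Gaa lay at 141 to 135 bases and the M-box of Grn at 211 to 204 bases before theirs. In GENCODE M21, used here for gene coordinates, Gaa starts at 119267887 and Grn at 102430315, both closer to these matches. The map of match positions shows all 15 genes with either motif, among them Atp6v0b with 2 sites and Gla with both motifs. Mcoln1 has a further, palindromic site 46 to 39 bases before the RefSeq start, outside the printed stretch. A match describes letters only and does not show that a factor binds there.

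**Figure D1:**
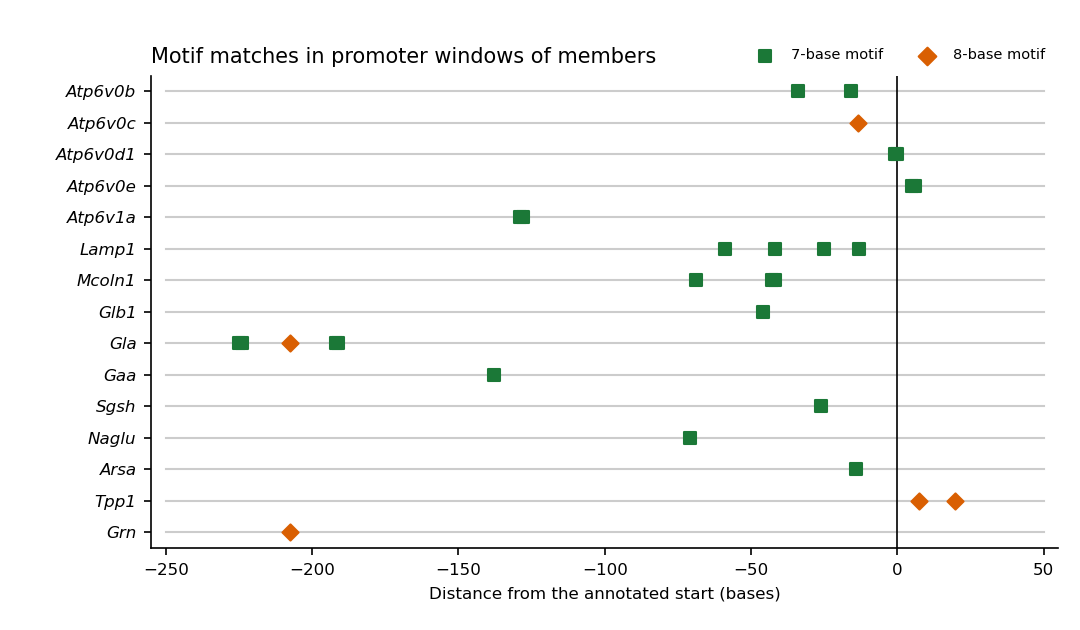
Positions of the 7-base motif (TCACGTG, squares) and the 8-base motif (TCATGTGA, diamonds) in the RefSeq promoter windows of 15 lysosomal genes, in bases from the annotated start (vertical line at 0). Lamp1 carries 4 matches within 62 bases before its RefSeq start, while those of Gaa and Grn lie more than 130 bases before theirs.

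Libraries held 2301913 to 7248939 counts. Counts at Fcgr2b itself were present in every library (167 to 1168), and the table does not say which exons they cover. At equal depth, 11547 to 13840 genes were detected in the 3 LYVE1+CX3CR1+ libraries after IC and 13820 in MHCII+CD11c+ control library 3, against at least 15224 in the other 13 libraries. Cx3cr1, H2-Ab1 and Itgax followed the labels, while Lyve1 did so less cleanly. Lyve1 was at 1727 to 2338 CPM (reads scaled to library size and composition) in LYVE1+CX3CR1+ and 695 to 1131 CPM in MHCII+CD11c− controls. After IC it was at 3272 to 4116 and 1455 to 2458 CPM in these subsets, so MHCII+CD11c− libraries after IC overlapped LYVE1+CX3CR1+ controls. MHCII+CD11c+ control library 2 stood somewhat apart from its group, with Lyve1 at 382 CPM against 29.8 and 25.3 CPM in libraries 1 and 3. All 6 macrophage markers checked were detected in every group, but their summed level was 1550 to 1880 CPM in MHCII+CD11c+ controls and 3430 to 4990 CPM in the other control libraries. The 5 dendritic-cell markers checked summed to 218 to 574 CPM in MHCII+CD11c+, 91.2 to 225 CPM in MHCII+CD11c− and 19.5 to 23.3 CPM in LYVE1+CX3CR1+ controls, where Ccr7 was at 0. Neutrophil markers summed to at most 249 CPM and fibroblast markers to at most 214 CPM in any library, both in MHCII+CD11c+ controls, and endothelial, mast-cell, lymphocyte and muscle and fat markers to at most 35.9 CPM. In bulk RNA, fewer cells of a type and less RNA per cell cannot be told apart.

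Per kilobase of exon, the most abundant transcripts over the 17 libraries were Psap, the precursor of the saposins that help enzymes reach sphingolipids (median 768 CPM per kb), Grn, which encodes progranulin (523), Cd68, the macrophage marker macrosialin (469.5), Lamp1, a major glycoprotein of the lysosomal membrane (368), and Hexa, the alpha chain of beta-hexosaminidase (226). The other 37 genes had medians below 90 CPM per kb. Among subunits of the V0 sector, Atp6v0d1 had 66.0 CPM per kb and was the most abundant. The 3 transcription factors were low, Mitf with 17.8, Tfe3 with 15.4 and Tfeb with 5.996 CPM per kb.

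**Figure D2:**
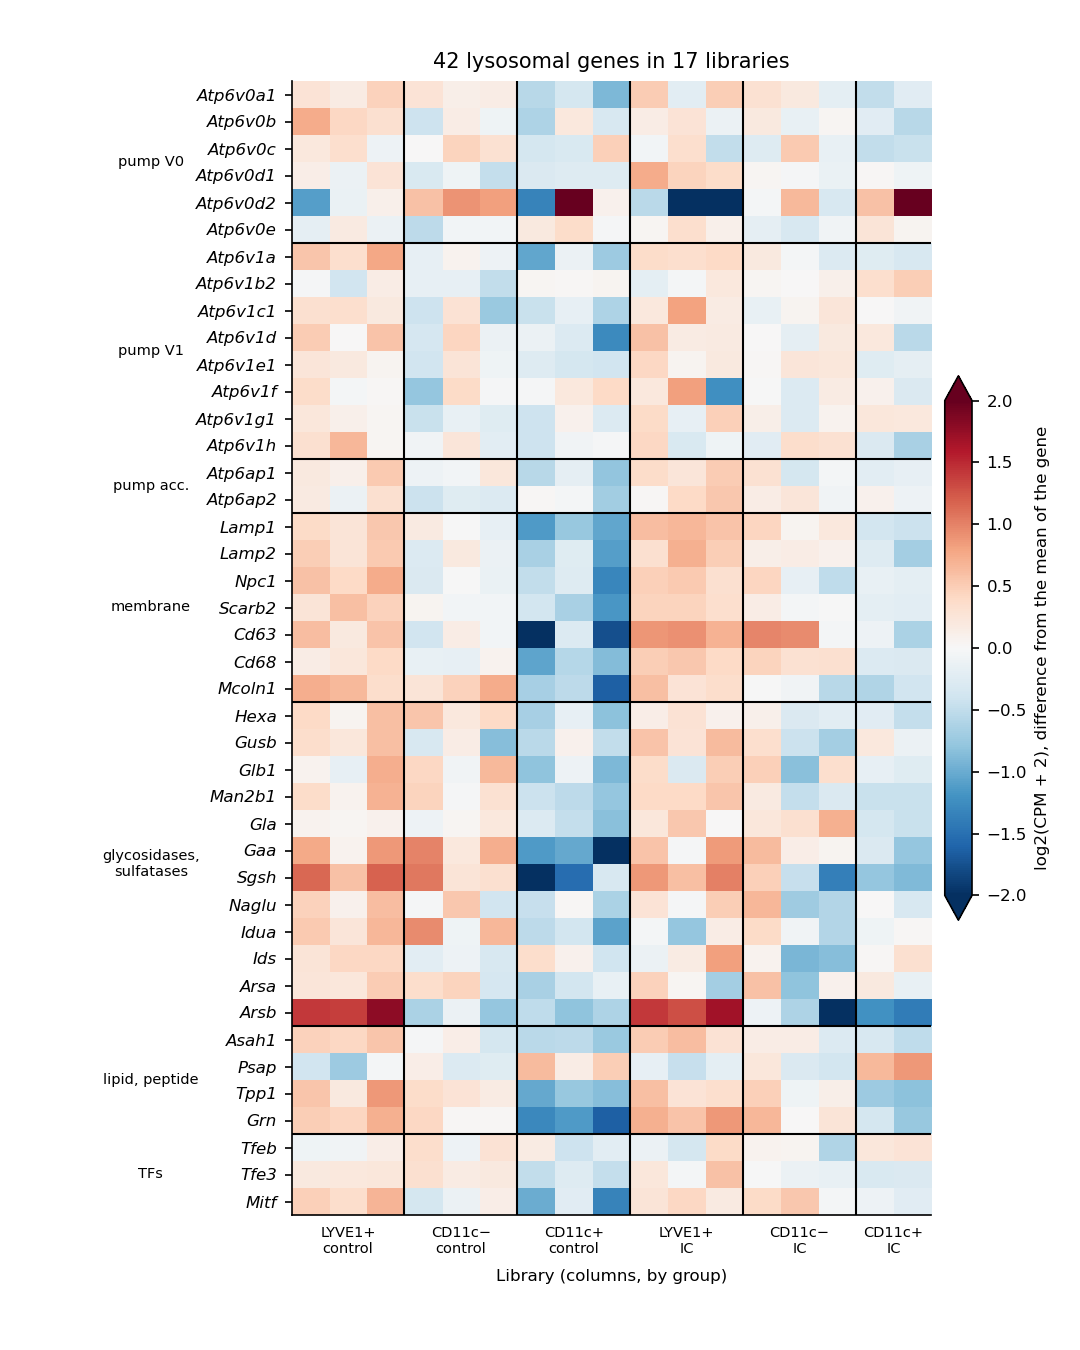
Levels of the 42 genes in 17 libraries, as log2(CPM + 2) minus the mean of each gene, with genes in rows by role and libraries in columns by group (colour scale limited to −2 and 2). The MHCII+CD11c+ control columns are bluest for the membrane proteins and most enzymes, Psap runs the other way, and Arsb is high in the 6 LYVE1+CX3CR1+ columns.

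The first comparison asked how the lysosomal genes differ between subsets without IC. Most were highest in LYVE1+CX3CR1+ and lowest in MHCII+CD11c+ macrophages. Between these subsets 26 of 42 genes were called changed (adjusted p under 0.05, quasi-likelihood test of edgeR with Benjamini-Hochberg adjustment over all genes tested), where 15.2% of all 15272 genes were called. Of these, 25 were higher in LYVE1+CX3CR1+ macrophages (7.83% of all genes) and 1, Psap, was lower (7.4% of all genes). The median log2 fold change of the 42 genes was 0.82 and that of all genes tested 0.05. LYVE1+CX3CR1+ libraries lay above every MHCII+CD11c+ library in 31 genes (20.8% of all genes) and under every one in 1 (16.9%). In group means, 26 of 42 genes (61.9%) ran in the order LYVE1+CX3CR1+ above MHCII+CD11c− above MHCII+CD11c+, as did 23.7% of all genes tested.

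Membrane proteins differed throughout: all 7 were called higher in LYVE1+CX3CR1+ than MHCII+CD11c+ controls. Lamp1 (chromosome 8, 13159161 to 13175338, plus strand) was at 1125, 1041 and 1263 CPM in LYVE1+CX3CR1+, at 985, 859.7 and 773 CPM in MHCII+CD11c− and at 393, 509 and 421 CPM in MHCII+CD11c+ control libraries. No library of one subset overlapped another, and Lamp1 was 2.59-fold higher in LYVE1+CX3CR1+ than MHCII+CD11c+ macrophages (log2 fold change 1.37 ± 0.15 (SE), adjusted p = 7.81e-07). Cd68 was at 590.1, 618 and 703 CPM in LYVE1+CX3CR1+, 480.5, 473 and 556 CPM in MHCII+CD11c− and 255, 355 and 291 CPM in MHCII+CD11c+ controls. Again the 3 subsets did not overlap, with a log2 fold change of 1.08 ± 0.15 between the outer subsets (adjusted p = 1.8e-05). Scarb2, the receptor that carries glucocerebrosidase to the lysosome, was at 278, 352 and 320.4 CPM against 179.5, 147 and 102 CPM, with MHCII+CD11c− libraries at 239, 222 and 222 CPM in between (1.15 ± 0.18, adjusted p = 6.34e-05). The remaining membrane proteins were Mcoln1, a calcium channel of the lysosome (1.49 ± 0.27), Npc1, which exports cholesterol (1.21 ± 0.24), Lamp2 (1.05 ± 0.19) and the tetraspanin Cd63 (1.73 ± 0.49). The call of Cd63 was lost without LYVE1+CX3CR1+ control library 1 or 3 or MHCII+CD11c+ control library 3, with an adjusted p of up to 0.215 over the alternatives. Its own MHCII+CD11c+ controls spread from 19.4 to 114 CPM, the highest being library 2.

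Of the 12 glycosidases and sulfatases, 7 were called higher in LYVE1+CX3CR1+ than MHCII+CD11c+ controls and none lower. Gaa, the acid alpha-glucosidase that degrades glycogen, was at 91.3, 56.2 and 99.1 CPM in LYVE1+CX3CR1+, 108, 62.4 and 89.9 CPM in MHCII+CD11c− and 23.2, 25.3 and 6.81 CPM in MHCII+CD11c+ control libraries. LYVE1+CX3CR1+ and MHCII+CD11c− libraries overlapped, while those of MHCII+CD11c+ macrophages lay below both, by 4.36-fold against LYVE1+CX3CR1+ (2.13 ± 0.37, adjusted p = 0.000286). Arsb, arylsulfatase B, which removes sulfate from dermatan and chondroitin sulfate, behaved differently. It was at 306, 299 and 397 CPM in LYVE1+CX3CR1+, 72.3, 104 and 65.9 CPM in MHCII+CD11c− and 79.5, 64.1 and 73.0 CPM in MHCII+CD11c+ controls (chromosome 13, 93771630 to 93943016). Both MHCII+ subsets overlapped each other, and LYVE1+CX3CR1+ libraries lay above all 6 of them. The other called genes were Sgsh, a heparan sulfatase (2.41 ± 0.50), Idua (1.19 ± 0.37), Man2b1 (0.97 ± 0.19), Hexa (0.89 ± 0.19) and Gla (0.59 ± 0.20, with an adjusted p of 0.0435). The call of Gla was present in only 8 of 27 alternatives (adjusted p of up to 0.235) and was lost with the replicate block, and that of Idua was present in 20. Gusb, Glb1, Naglu, Ids and Arsa had fitted log2 fold changes of 0.31 to 0.87 and did not pass. Counts of Arsb may hold reads of an antisense gene, Gm26527, that covers 32.3% of its exon bases, since use of the strand in counting was not stated. Card14 overlaps 21.6% of the exon bases of Sgsh on the other strand. Unlike Gm26527 it is in the count table itself, with a median of 0.425 CPM, and how reads there were assigned was not stated.

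All 4 genes of lipid and peptide breakdown were called, 3 higher in LYVE1+CX3CR1+ macrophages and 1 lower. Grn, encoding the secreted and lysosomal protein progranulin, was at 2154, 2059 and 2512 CPM in LYVE1+CX3CR1+, 2032, 1555 and 1545 CPM in MHCII+CD11c− and 623, 699.6 and 492 CPM in MHCII+CD11c+ control libraries. It had the smallest p-value of the 42 genes in this comparison, 3.71-fold higher in LYVE1+CX3CR1+ than MHCII+CD11c+ macrophages (1.89 ± 0.19, adjusted p = 1.47e-07). Tpp1, a peptidase that removes tripeptides, was at 228, 178 and 284 CPM in LYVE1+CX3CR1+, 199.8, 189 and 174 CPM in MHCII+CD11c− and 75.5, 91.2 and 84.7 CPM in MHCII+CD11c+ controls (1.46 ± 0.19, adjusted p = 9.28e-06). For both genes the MHCII+CD11c+ libraries lay well under those of the other subsets, which for Tpp1 overlapped each other. Asah1, acid ceramidase, followed with 1.08 ± 0.17. Psap ran the other way, at 1821, 1429 and 2298 CPM in LYVE1+CX3CR1+, 2589, 1949 and 2006 CPM in MHCII+CD11c− and 3654, 2616 and 3315 CPM in MHCII+CD11c+ controls. Its MHCII+CD11c+ libraries all lay above those of the other subsets (log2 fold change of LYVE1+CX3CR1+ over MHCII+CD11c+ −0.79 ± 0.19, adjusted p = 0.00475).

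**Figure D3:**
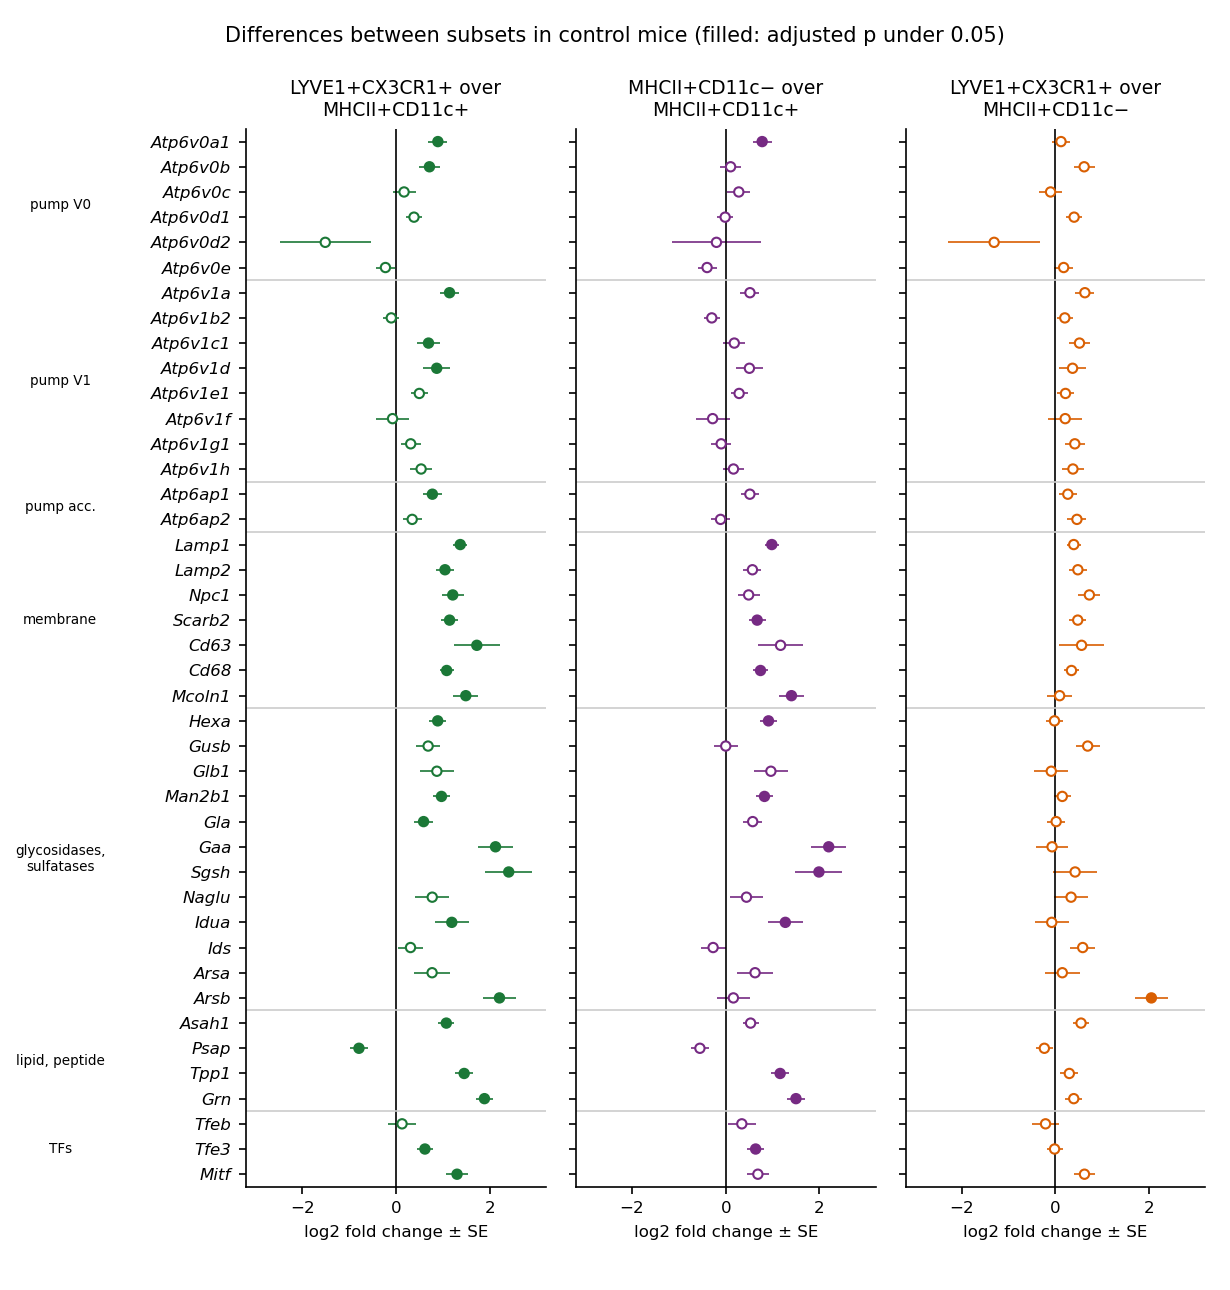
Fitted log2 fold changes ± SE of the 42 genes between control subsets, in 3 panels, with filled circles at an adjusted p under 0.05. Filled circles number 26 between LYVE1+CX3CR1+ and MHCII+CD11c+, 13 between MHCII+CD11c− and MHCII+CD11c+ and 1 (Arsb) between LYVE1+CX3CR1+ and MHCII+CD11c− macrophages.

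Of the 16 genes of the proton pump, 6 were called higher in LYVE1+CX3CR1+ than MHCII+CD11c+ controls, and their median log2 fold change was 0.44, beside 1.21 for the 7 membrane proteins and 0.88 for the glycosidases and sulfatases. The difference between these groups of genes was not tested. Those called were Atp6v1a, the catalytic subunit (1.15 ± 0.20, adjusted p = 0.000259), Atp6v0a1 (0.90 ± 0.20), Atp6v1d (0.87 ± 0.29), Atp6ap1, an assembly and accessory protein (0.78 ± 0.20), Atp6v0b (0.72 ± 0.22) and Atp6v1c1 (0.70 ± 0.24). Of 27 alternatives, Atp6v1a was called in 27, Atp6v0a1 in 26, Atp6ap1 in 23, Atp6v0b in 18, Atp6v1d in 17 and Atp6v1c1 in 11. Not called were Atp6v0c, Atp6v0e, Atp6v1b2, Atp6v1e1, Atp6v1f, Atp6v1g1, Atp6v1h and Atp6ap2, with log2 fold changes between −0.22 and 0.54, and both forms of the d subunit. Atp6v0d1, the form found in most tissues, was at 139, 116 and 152 CPM in LYVE1+CX3CR1+, 102, 118 and 89.6 CPM in MHCII+CD11c− and 102, 105 and 105 CPM in MHCII+CD11c+ controls (0.39 ± 0.17, adjusted p = 0.154). Atp6v0d2, the form known from osteoclasts and some macrophages, was scarce and uneven: 2.36, 6.49 and 7.95 CPM, 11.9, 15.4 and 14.4 CPM, and 1.70, 37.7 and 7.94 CPM in the same order. MHCII+CD11c+ control library 2 held 203 of its counts, against 8 and 21 in libraries 1 and 3 of that group. Of 4 osteoclast markers tested 1 was called, Dcstamp, at 86.8 to 109 CPM in MHCII+CD11c+ controls and at most 2.34 CPM in the other controls.

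Of the transcription factors, Mitf was at 140.5, 129 and 162 CPM in LYVE1+CX3CR1+, 78.3, 93.0 and 110.0 CPM in MHCII+CD11c− and 49.6, 85.3 and 38.6 CPM in MHCII+CD11c+ controls. The LYVE1+CX3CR1+ libraries lay above all others (1.30 ± 0.24 over MHCII+CD11c+, adjusted p = 0.000337). Tfe3 was at 165, 165 and 167 CPM, 179, 160.5 and 164 CPM, and 101, 119.8 and 102 CPM in the same order. It was lower in MHCII+CD11c+ than in LYVE1+CX3CR1+ macrophages by a modest margin, with a log2 fold change of LYVE1+CX3CR1+ over MHCII+CD11c+ of 0.62 ± 0.17 (adjusted p = 0.0153). Tfeb had 30.4, 30.8 and 35.7 CPM, 42.2, 30.2 and 40.1 CPM, and 36.6, 24.0 and 28.0 CPM, so that all 3 subsets overlapped (0.13 ± 0.30, adjusted p = 0.844). Among the 12 genes with TCACGTG in their window, 7 were called higher in LYVE1+CX3CR1+ than MHCII+CD11c+ macrophages, and among the 23 without it 15 were.

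Markers of several cell types moved with this comparison. Of 6 macrophage markers 4 were called higher in LYVE1+CX3CR1+ than MHCII+CD11c+ controls, led by Csf1r (2.03 ± 0.19), Mertk (2.87 ± 0.35) and Adgre1 (1.11 ± 0.22), and Cd14 was lower. Of 5 dendritic-cell markers 4 were called lower, led by Flt3, Cd209a and Ccr7, as were 2 of 5 neutrophil markers (S100a8 and Retnlg) and 1 of 4 osteoclast markers (Dcstamp). The part of these markers in the lysosomal differences was not tested. Without MHCII+CD11c+ control library 2, the highest of its group in Lyve1, 27 of the 42 genes were called. Without the libraries in which under 14000 genes were detected, MHCII+CD11c+ control library 3 among them, 19 were. Leaving out MHCII+CD11c+ control library 3 ended 8 of the calls (Atp6v0b, Atp6v1c1, Atp6v1d, Atp6ap1, Gla, Idua, Cd63 and Tfe3), and leaving out LYVE1+CX3CR1+ control library 3 ended the same ones other than Atp6v0b.

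**Figure D4:**
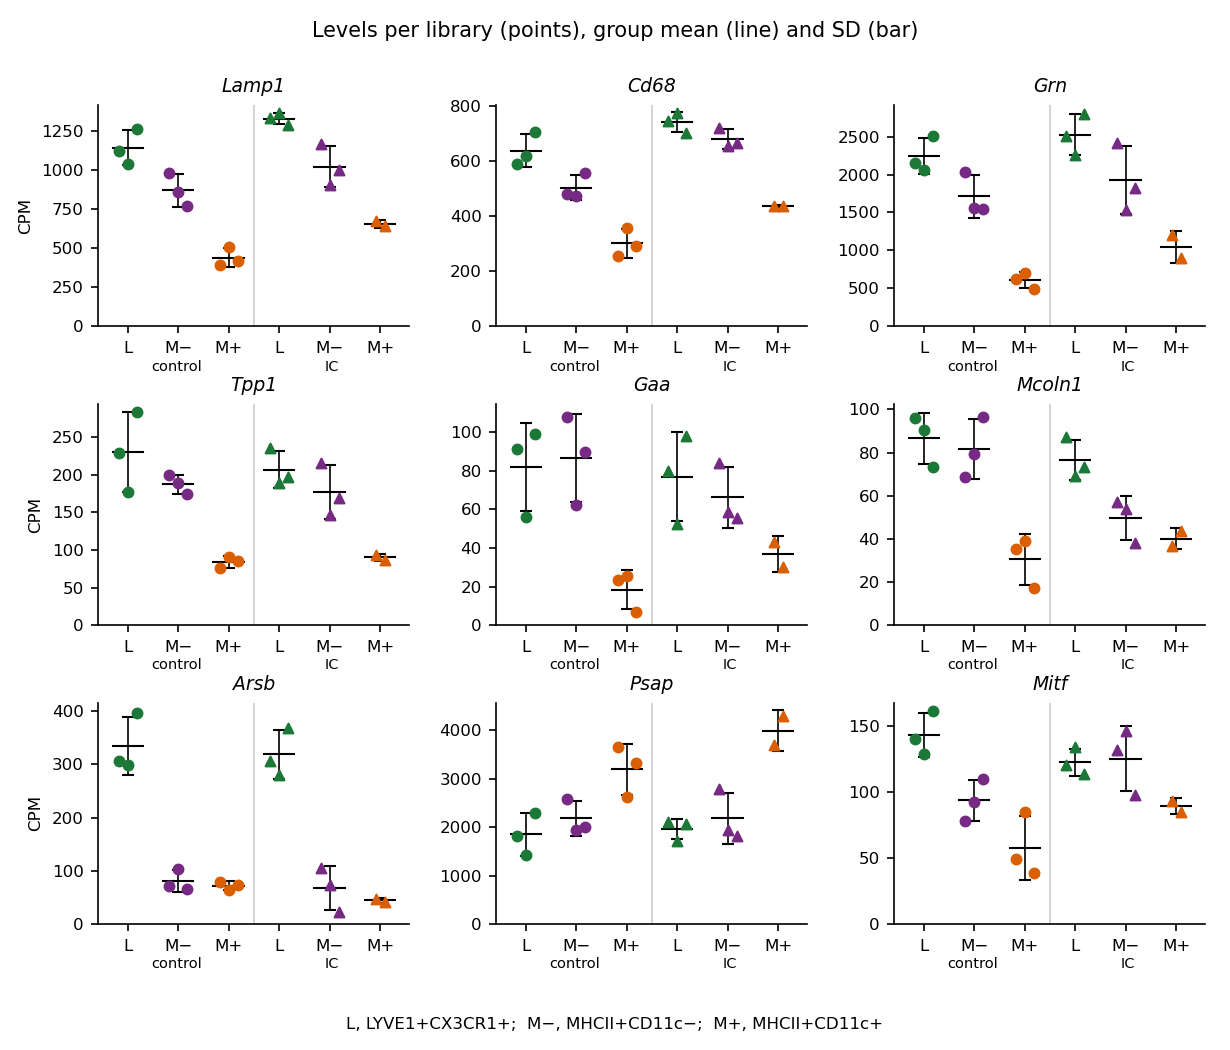
CPM of 9 genes per library (circles control, triangles IC), with the group mean as a line and the SD as a bar; L stands for LYVE1+CX3CR1+ macrophages, M− for the MHCII+CD11c− and M+ for the MHCII+CD11c+ subset. Lamp1 and Cd68 step down from L to M+ in controls, Arsb is high in L, and Psap is highest in M+.

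The second comparison set MHCII+CD11c+ against MHCII+CD11c− macrophages of control mice, subsets that share MHC class II and differ in CD11c. It shares its MHCII+CD11c+ libraries with the first. Here 13 of 42 genes were called changed, beside 8.66% of all genes, and all 13 were lower in MHCII+CD11c+ macrophages (4.99% of all genes were). The median log2 fold change was −0.52, and −0.03 over all genes tested. MHCII+CD11c+ libraries lay under every MHCII+CD11c− library in 17 genes (14.9% of all genes) and above every one in 3 (12.6%). The smallest p-values belonged to Grn (−1.50 ± 0.18, adjusted p = 9.02e-06), Lamp1 (−0.98 ± 0.15), Tpp1 (−1.16 ± 0.19), Gaa (−2.20 ± 0.37) and Mcoln1 (−1.40 ± 0.27). Mcoln1 was at 68.7, 79.5 and 96.6 CPM in MHCII+CD11c− and at 35.3, 39.0 and 17.02 CPM in MHCII+CD11c+ controls, with LYVE1+CX3CR1+ libraries at 96.1, 90.5 and 73.4 CPM. Those of MHCII+CD11c− and LYVE1+CX3CR1+ macrophages overlapped and lay above all 3 MHCII+CD11c+ libraries.

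The other genes called in this comparison were Hexa (−0.91 ± 0.19), Cd68 (−0.74 ± 0.15), Man2b1 (−0.83 ± 0.19), Sgsh (−1.99 ± 0.50), Atp6v0a1 (−0.78 ± 0.20), Scarb2 (−0.67 ± 0.18), Tfe3 (−0.64 ± 0.17) and Idua (−1.27 ± 0.37). By role, 4 of 7 membrane proteins, 5 of 12 glycosidases and sulfatases, 2 of 4 genes of lipid and peptide breakdown, 1 of 3 transcription factors and 1 of 16 pump genes were called. Psap was at 0.55 ± 0.19 (adjusted p = 0.0733) and was called higher with the replicate block (adjusted p = 0.0445) and with DESeq2 (0.0492). Arsb was at −0.16 ± 0.35 (adjusted p = 0.854). Without MHCII+CD11c− control library 1, 8 genes were called, and without MHCII+CD11c+ control library 2 there were 18, so single libraries moved this count. The calls of Sgsh, Idua, Tfe3, Scarb2 and Atp6v0a1 were lost without MHCII+CD11c− control library 1. Of the 6 macrophage markers 4 were called lower in MHCII+CD11c+ macrophages here, led by Csf1r (−1.87 ± 0.19), 1 neutrophil marker (Csf3r) was lower and Dcstamp was higher, and their part in it was not tested.

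The third comparison set LYVE1+CX3CR1+ against MHCII+CD11c− controls. Only Arsb of the 42 genes was called (1.56% of all genes were, and 0.34% of all genes in this direction), 4.13-fold higher in LYVE1+CX3CR1+ macrophages, with a log2 fold change of 2.05 ± 0.35 and an adjusted p of 0.006. The call was present in all 27 alternatives, with an adjusted p of at most 0.0431. The median log2 fold change of the 42 genes was 0.34, beside 0.00 for all genes tested, and 33 of 42 were above 0, beside 49.6% of all genes. LYVE1+CX3CR1+ libraries lay above every MHCII+CD11c− library in 16 genes (11.3% of all genes) and under every one in 1 (10.3%). An unadjusted p under 0.05 was reached by 16 genes (10.2% of all genes), led after Arsb by Asah1 (0.55 ± 0.17), Atp6v1a (0.63 ± 0.20) and Npc1 (0.72 ± 0.24), with adjusted p between 0.133 and 0.162. A fit with sample quality weights called 9 genes, Arsb among them. Of the dendritic-cell markers Flt3, Cd209a and Ccr7 were called lower in LYVE1+CX3CR1+ macrophages here, and their part in the difference of Arsb was not tested.

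The order of the subsets after IC was examined next. In group means 27 of 42 genes (64.3%) ran from LYVE1+CX3CR1+ over MHCII+CD11c− to MHCII+CD11c+, beside 19.3% of all genes tested. LYVE1+CX3CR1+ libraries lay above both MHCII+CD11c+ libraries after IC in 26 of 42 genes (13.1% of all genes) and under both in 3 (27.8%). They lay above every MHCII+CD11c− library after IC in 11 genes (6.16% of all genes). MHCII+CD11c+ libraries lay under every MHCII+CD11c− library in 17 of 42 genes (40.5%, beside 17% of all genes) and above in 5 (11.9%, beside 19.6%). Arsb was at 307, 279.5 and 369 CPM in LYVE1+CX3CR1+, 106, 73.3 and 23.4 CPM in MHCII+CD11c− and 47.7 and 41.6 CPM in MHCII+CD11c+ macrophages after IC. Psap was at 2107, 1724 and 2070.0 CPM, 2781, 1940.0 and 1825 CPM, and 3694 and 4296 CPM in the same order. As in controls, Arsb in LYVE1+CX3CR1+ and Psap in MHCII+CD11c+ macrophages lay above every library of the other subsets.

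The next comparisons asked whether IC changed these genes within a subset. No gene of the 42 was called by edgeR in LYVE1+CX3CR1+ (0.963% of all genes were called), MHCII+CD11c− (0.701%) or MHCII+CD11c+ macrophages (0.216%). An unadjusted p under 0.05 was reached by 1, 5 and 6 of the 42 genes in this order, beside 14.1%, 9.99% and 5.21% of all genes. DESeq2 also called none, while a fit with sample quality weights called Lamp1 and a fit without the low-count filter called Grn in MHCII+CD11c+ macrophages. Without MHCII+CD11c+ control library 2, Cd63 and Grn were called there.

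In LYVE1+CX3CR1+ macrophages the median log2 fold change of the 42 genes was 0.01, beside −0.14 for all genes tested, and 22 genes were above 0 (40.3% of all genes). With the size factors of DESeq2 these medians were 0.10 and −0.05, with 27 genes above 0, and with an offset for gene length the median of the 42 genes was −0.06, with 16 above 0, so the direction depended on the scaling. The 3 IC libraries of this subset were among the 4 with the fewest genes detected, and the part of this in the values was not tested. The smallest p-value was that of Atp6v0d1, at 212, 172 and 163 CPM after IC and 139, 116 and 152 CPM in controls. Its libraries did not overlap, as was so for 3 genes higher after IC (4.95% of all genes) and 2 lower (16.7%), but the change of 0.42 ± 0.17 did not pass (adjusted p = 0.255). Lamp1 had 1334, 1367 and 1292 CPM after IC, each above the 3 controls (0.22 ± 0.15, adjusted p = 0.56). Grn had 2511, 2259 and 2800.0 CPM and Tpp1 236, 188 and 197 CPM, both overlapping their controls. Atp6v0d2 had 4.39 CPM in library 1 and 0 counts in libraries 2 and 3, which allows levels of up to 0.971 and 1.30 CPM there.

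In MHCII+CD11c− macrophages the median was 0.03, beside −0.03 for all genes. With DESeq2 size factors it was −0.02, beside −0.07, so its sign depended on the scaling. The 5 genes at an unadjusted p under 0.05 went in both directions, Cd68 (0.43 ± 0.15) and Atp6ap2 (0.43 ± 0.20) upwards and Hexa (−0.52 ± 0.19), Mcoln1 (−0.71 ± 0.26) and Man2b1 (−0.43 ± 0.19) downwards, with adjusted p of 0.256 to 0.489. Cd68 was at 719.5, 653 and 665 CPM after IC, above all 3 controls. Mcoln1 was at 57.0, 54.0 and 38.2 CPM after IC, under all 3 controls. IC libraries lay above all controls in 4 genes (8.72% of all genes) and under all of them in 3 (8.48%). Tfe3 was at 143, 132 and 129 CPM (−0.32 ± 0.17, adjusted p = 0.572) and Tfeb at 34.1, 34.0 and 20.6 CPM (−0.34 ± 0.30).

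In MHCII+CD11c+ macrophages 36 of 42 genes had a fitted log2 fold change above 0, beside 51.1% of all genes, and the median was 0.31, beside 0.01 for all genes. With DESeq2 size factors the medians were 0.23 and −0.06, and again 36 genes were above 0. The 2 IC libraries lay above the 3 controls in 16 genes (38.1%, beside 14.1% of all genes) and under them in 2 (9.02% of all genes). The 3 controls also served in the first and second comparisons, so these values are not independent of the differences there. The smallest p-value was that of Grn, at 1198 and 901 CPM after IC and 623, 699.6 and 492 CPM in controls (0.80 ± 0.20, adjusted p = 0.146). Lamp1 was at 674 and 640.0 CPM after IC, above its controls (0.57 ± 0.17, adjusted p = 0.304), and Cd68 at 438 and 435 CPM, likewise above (0.54 ± 0.17, adjusted p = 0.42). Gaa had 43.3 and 30.2 CPM (0.96 ± 0.40), Mitf 93.7 and 85.2 CPM (0.62 ± 0.26, overlapping its controls) and Scarb2 201 and 199 CPM (0.48 ± 0.20), each with an adjusted p of 0.82. Macrophage markers summed to 2470 to 2710 CPM in the IC libraries and 1550 to 1880 CPM in the controls, and neutrophil markers to at most 29.5 CPM against 71.5 to 249 CPM. None of them was called, and their part was not tested.

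**Figure D5:**
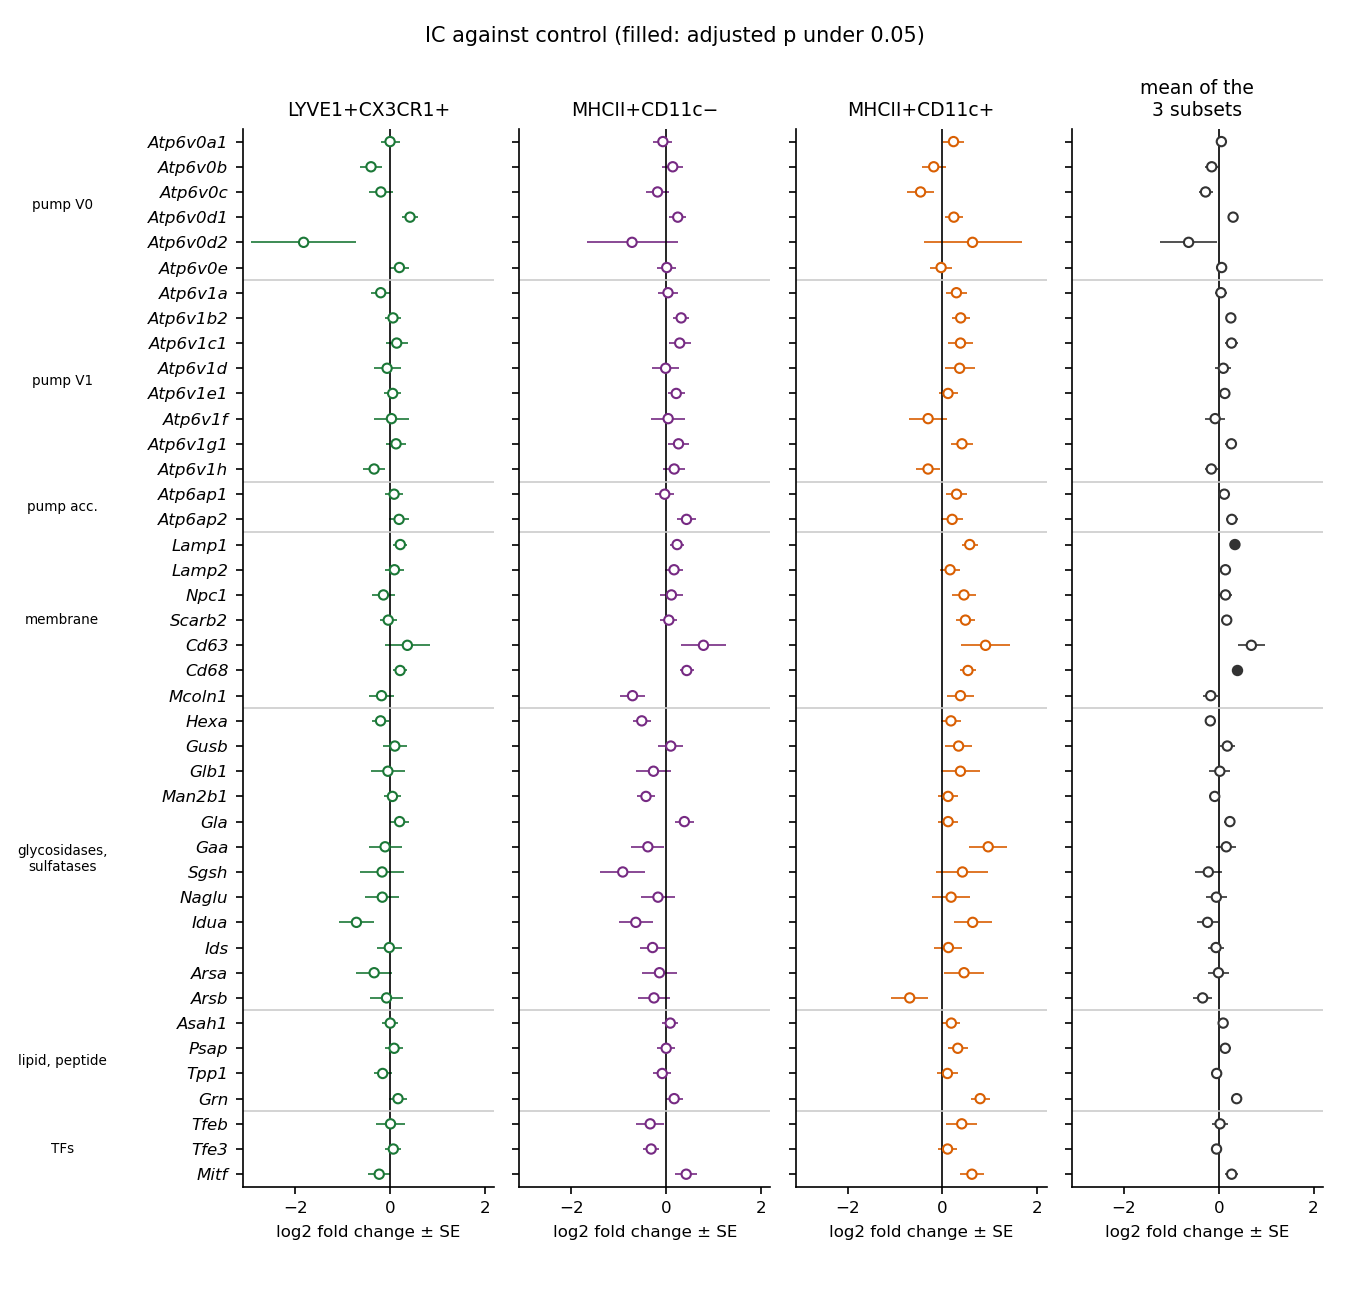
Fitted log2 fold changes ± SE of IC against control for the 42 genes in each subset and for the mean of the 3 responses, with filled circles at an adjusted p under 0.05. Single subsets have no filled circle, most circles of MHCII+CD11c+ macrophages lie right of 0, and Lamp1 and Cd68 are filled in the mean.

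Averaged over the 3 subsets, 2 of the 42 genes were called changed by IC, beside 3.35% of all genes, both upwards (1.7% of all genes). Cd68 rose by 1.32-fold on average (log2 fold change 0.40 ± 0.09, adjusted p = 0.0146) and Lamp1 by 1.27-fold (0.34 ± 0.09, adjusted p = 0.0363). Cd68 was at 744, 774 and 702 CPM in LYVE1+CX3CR1+ libraries after IC. Lamp1 was at 1166, 904 and 1001 CPM in MHCII+CD11c− libraries after IC. For both genes 8 of 8 IC libraries lay above the mean of the controls of their own subset. The same was so for Atp6v0d1 and Cd63, which edgeR did not call here, and the share over all genes was not determined. These counts come from the libraries that gave the calls, so they add no separate evidence. After Cd68 and Lamp1, Grn was next (0.38 ± 0.11, adjusted p = 0.0544) and was called with DESeq2 (adjusted p = 0.029). Of 25 alternatives, Cd68 was called in 23 and Lamp1 in 15. Without either of the MHCII+CD11c+ libraries after IC, none of the 42 genes was called, and without MHCII+CD11c+ control library 2 there were 4 (Cd68, Lamp1, Grn and Cd63). In the mean response 2 of 6 macrophage markers were called higher (Cd14 and Fcgr1), and 1 dendritic-cell marker (Cd209a) and 1 neutrophil marker (S100a8) were called lower. The part of these markers in the values of Cd68 and Lamp1 was not tested.

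Whether subsets differed in their response was tested by the interaction of subset and IC. None of the 42 genes was called by edgeR in any of the 3 interactions, beside 4, 5 and 0 of all 15272 genes (0.0262%, 0.0327% and 0%). Unadjusted, a p under 0.05 was reached by 0 genes between LYVE1+CX3CR1+ and MHCII+CD11c− macrophages (7.54% of all genes). Between the LYVE1+CX3CR1+ and MHCII+CD11c+ subsets 3 reached it (Idua, Mitf and Grn, beside 8.02% of all genes), and between both MHCII+ subsets 5 did (Mcoln1, Gaa, Hexa, Idua and Grn, beside 3.25%). For Grn the response of LYVE1+CX3CR1+ minus that of MHCII+CD11c+ macrophages was −0.62 ± 0.27 log2 units (adjusted p = 0.555). The median of this difference was −0.27 for the 42 genes and −0.21 for all genes tested, and −0.09 and −0.04 with DESeq2 size factors.

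Other lysosomal genes were taken from 5 lists with 79 genes, of which 71 were abundant enough to test. Between LYVE1+CX3CR1+ and MHCII+CD11c+ controls 28 of these (39.4%, beside 7.83% of all genes) were called higher in LYVE1+CX3CR1+ macrophages and 4 lower (5.63%, beside 7.4% of all genes). Of 25 further hydrolases and activators 12 were higher, among them Ctsa, which protects lysosomal glycosidases (1.15 ± 0.16), and Acp2, an acid phosphatase (1.52 ± 0.23), and 3 were lower. Of 18 membrane and transport proteins 9 were higher, led by the cation channel Tpcn1 (2.61 ± 0.25, adjusted p = 8.16e-08). Of 15 genes of nutrient sensing 5 were higher, led by Flcn, a regulator of TFEB and TFE3 (1.33 ± 0.19), and of 7 further pump subunits and regulators 2 were higher and 1 lower. None of 6 enzyme-sorting genes was called.

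The 4 genes called lower made up a share (5.63%) near that of all genes (7.4%). Among these genes, Gm2a, the activator protein that presents ganglioside to beta-hexosaminidase, was at 83.9 ± 18.1 CPM in LYVE1+CX3CR1+, 199.5 ± 35.6 CPM in MHCII+CD11c− and 698 ± 141 CPM in MHCII+CD11c+ controls (mean ± SD, n = 3 each), a log2 fold change between the outer subsets of −3.05 ± 0.21 (adjusted p = 7.56e-10). Naaa, an acid amidase, was at 51.1 ± 15.7, 193 ± 24.6 and 453 ± 124 CPM in the same order (−3.15 ± 0.28). Atp6v0a2, another form of the pump subunit a, was at −1.30 ± 0.28 on the log2 scale. Atp6v0a1 and Atp6v0a2 thus ran in opposite directions, at 265 ± 27.7 and 42.1 ± 9.57 CPM in LYVE1+CX3CR1+ against 142 ± 26.5 and 104 ± 20.6 CPM in MHCII+CD11c+ controls.

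In the second comparison 16 of the 71 genes (22.5%, beside 4.99% of all genes) were lower in MHCII+CD11c+ than MHCII+CD11c− controls, led by Tpcn1, Flcn and Ctsa, and 4 (5.63%, beside 3.67%) were higher, among them Gm2a, Naaa and Atp6v0a2; the MHCII+CD11c+ libraries are those of the first comparison. In the third, 2 were called (2.82%, beside 1.22% of all genes), Naaa (−1.92 ± 0.27) and Gm2a (−1.25 ± 0.20), both lower in LYVE1+CX3CR1+ than MHCII+CD11c− controls. None of the 71 was called after IC within a subset. Averaged over subsets 4 rose (5.63%, beside 1.7% of all genes), among them Acp2 (0.61 ± 0.13, adjusted p = 0.00949), the mannose phosphate receptor M6pr (0.37 ± 0.09) and the channel Tpcn2 (0.76 ± 0.20).

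Spread between replicates set the precision. The median coefficient of variation of the 42 genes lay between 8.35% and 21.9% by group, lowest in the pair of MHCII+CD11c+ libraries after IC and highest in their controls. Within the MHCII+CD11c+ controls, library 2 was the highest in 26 of 42 genes and library 3 the lowest in 22. Library 1 of MHCII+CD11c− macrophages after IC was highest in 29 of 42 genes, and LYVE1+CX3CR1+ control library 3 in 31. Sgsh, Gaa, Idua, Arsa, Mcoln1, Glb1 and Atp6v0d2 had libraries with under 50 counts. Cd63 and Atp6v0c have processed copies elsewhere in the genome (Cd63-ps at up to 56.6 CPM and Atp6v0c-ps2 at up to 7.54 CPM), among which reads can be split.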

How the data were processed

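The authors built stranded pico-input libraries. Per the labels and the study's methods, reads were trimmed with Trim Galore, checked with FastQC, aligned to mm10 with HISAT2 and counted with featureCounts; versions, annotation and strand use were not given in the sources used here. The deposited values are counts, whole reads per gene symbol without normalization, identical in the joint table and the 17 single tables. The joint table had 1 unmatched column, which summed to 0 and was not used. For their own tests the authors used DESeq2 and the sva package against batch effects; which libraries shared a batch is not given in the sources used here.

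Genes were kept by filterByExpr (minimum count 10) and TMM-scaled. One mean per group was fitted to all 17 libraries (11 residual degrees of freedom) with robust glmQLFit and tested by the quasi-likelihood F test of edgeR 4.0.16 in R 4.3.3, with p-values adjusted by Benjamini-Hochberg in each contrast (15272 genes). Scripts were tested on simulated data. Coordinates are those of GENCODE M21 (GRCm38, mm10), and promoters are from RefSeq (GRCm38.p6).

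The 42 genes, the further lists and the tests were chosen with earlier results of these data known. Values in every library were given for up to 5 genes per direction and contrast ranked by p among called genes, and for Tfeb, Tfe3, Mitf, Lamp1, Atp6v0d1 and Atp6v0d2. For the further lists up to 3 genes per direction and contrast were named by the same ranking; some genes are counted but not reported here by name. Alternatives were DESeq2 1.42.0, its size factors in edgeR, no low-count filter, voom with sample quality weights (limma 3.58.1), the groups of the contrast alone, the replicate number as a block, equal depth, 2 surrogate variables (sva 3.50.0), a centred length offset, each library left out in turn and, added after seeing the data, leaving out the libraries with under 14000 genes. Floors (3 counts) cover counting error only.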

Additional observations from a re-analysis of the deposited data

How the results depend on the processing

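Each group had 2 or 3 libraries, which limits the precision. No called gene changed direction under the alternatives run, but small medians did: with IC in LYVE1+CX3CR1+ macrophages the median of the 42 genes was 0.01 and −0.06 with the length offset, in MHCII+CD11c− macrophages 0.03 and −0.02 with DESeq2 size factors, and for their difference −0.03 and 0.10 with DESeq2 size factors. Of the calls made, 16 of 26 between LYVE1+CX3CR1+ and MHCII+CD11c+ controls, 7 of 13 between MHCII+CD11c+ and MHCII+CD11c− controls and 1 of 1 between LYVE1+CX3CR1+ and MHCII+CD11c− controls were present in all 27 alternatives, and 0 of 2 in the mean IC response in all 25. The count of 26 was 16 with 2 surrogate variables and 18 to 28 with a library left out. The count of 13 was 9 with 2 surrogate variables, 18 with DESeq2 and 8 to 18 with a library left out (8 without MHCII+CD11c− control library 1). The count of 1 (Arsb) was 9 with sample quality weights, 2 with the groups of the contrast alone and 1 to 2 with a library left out (2 without MHCII+CD11c− control library 2). In the mean IC response the count of 2 was 1 with 2 surrogate variables and 0 to 4 with a library left out (0 without either MHCII+CD11c+ library after IC, 4 without control library 2 of that subset). For IC in MHCII+CD11c+ macrophages the count of 0 was 1 without the low-count filter, 1 with sample quality weights and 0 to 2 with a library left out (2 without MHCII+CD11c+ control library 2). The cause of these shifts was not tested. With a library left out, IC in LYVE1+CX3CR1+ and in MHCII+CD11c− macrophages and the 3 interactions gave 0 to 0.

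Replicate numbers were shared by groups, and the labels do not say what they mark. In the MHCII+ controls, deviations of libraries with the same number correlated at 0.08 to 0.286 and those with different numbers at −0.15 to 0.051. Same-number correlations were positive in every pair of subsets of one condition, and outside the MHCII+ controls their range overlapped that of different numbers. Between controls and IC groups they took both signs. Whether equal numbers mark shared mice or pools was not tested, and the main test treated the libraries as unpaired. With the replicate number as a block, 25, 15 and 1 genes were called in the 3 comparisons of controls, 2 in the mean IC response and 0 elsewhere.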
